A study of Daphnia magna with 27 samples.

Results

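The 250 clones described here are the brightest unnamed cDNA clones of 1 library on a spotted array of the water flea Daphnia magna. They were chosen from the 4 deposited comparison tables. A clone had to carry the token Mol in its identifier, have a test statistic in all 4 tables and have no name. Of 762 Mol clones, 0 carried a name and 14 lacked a test in at least 1 table, which left 748 candidates. The 250 with the highest average log2 expression, taken as the mean over the 4 tables, were kept. They are 250 of the 2261 reporters (spotted cDNA fragments) in the tables. All their identifiers begin with EBT_DamaMol, and they are given below by plate and well, so that ASP3 H5 is EBT_DamaMol_ASP3 H5. The rule used brightness, an average over the arrays and channels of a table, and not the differences between groups, but both come from the same arrays.

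Mol is not spelled out in the sources used here, which also do not pair a clone with a gene or a sequence, so no function can be given for any of the 250. Subtracted cDNA libraries for energy metabolism, moulting and reproduction have been described for this species. An adult daphnid moults through its whole life under the control of ecdysteroid hormones, releases its brood shortly before each moult and lays the next clutch of eggs soon after it. Transcripts of cuticle, yolk and digestion follow that cycle, so the day of sampling within it bears on whole-body RNA. In a cDNA library an abundant transcript is often picked more than once, and several clones can then report the same transcript.

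Each of the 27 arrays compared RNA from 10 pooled whole adults of clone K6, a long-kept laboratory clone, with a reference pool made from daphnids of 3 ages. The 9 groups had 3 samples each, and all groups descend from neonates of 1 culture. CtrlF0, CtrlF1 and CtrlF2 are successive generations in modified M4 medium, sampled at 20, 22 and 20 days. ZnF0 was raised in this medium with zinc at 388 µg/L and sampled at 23 days. Its offspring stayed in zinc as Zn(+)F1 or were moved as newborns to control medium as Zn(-)F1, both sampled at 21 days. Offspring of Zn(+)F1 stayed in zinc as Zn(+)F2, sampled at 21 days, or were moved to control medium as Zn(+/-)F2, sampled at 22 days. Offspring of Zn(-)F1 stayed in control medium as Zn(-/-)F2, sampled at 22 days. The labels name no separate cultures for the 3 samples in a group. The p-values of the fits made here then measure only the spread between samples of a group, which may be technical. The authors' fits held further values of unknown source, as described below, so their p-values and SEs may also rest on spread within arrays. In whole-body RNA, fewer cells of a type and less RNA per cell cannot be told apart.

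The own RNA carried Cy5 on every array of CtrlF0, ZnF0 and CtrlF1, and Cy3 on every array of Zn(+)F1 and Zn(-)F1. Each F2 group held both orientations. The columns of CtrlF0 replicates 1 and 3 in the value table were equal within a tolerance of 0.001 over 2066 reporters and were counted as 1 sample, so that CtrlF0 had 2 distinct arrays of 26 in all. Zn(+)F1 replicate 2 had values for 886 reporters and 50 of the 250 clones, and each of the other arrays had values for at least 245 of the 250. The arrays of CtrlF2 and Zn(+)F2 were not centred, with medians over all reporters from -0.40 to -0.31 with the own RNA in Cy3 and from 0.31 to 0.35 in Cy5. Values per array are therefore given as the log2 ratio of own RNA to reference pool minus the median of that array. Values beyond 6 in size before centring occurred in 4 of the 250 clones on CtrlF2 replicate 1 and in 3 on Zn(+)F2 replicate 3, the lowest at -45.1. Among arrays with the own RNA in Cy5, the lowest correlation over all reporters was -0.32, between ZnF0 replicate 1 and CtrlF2 replicate 3. The labels state the dyes, and the direction of the ratios was kept. It was checked against the authors' tables only for CtrlF0, ZnF0, CtrlF1 and CtrlF2. For the other groups it was assumed and could not be checked in this way.

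The 250 clones spanned an average log2 expression of 7.96 to 14.9, with a median of 9.61, against a median of 7.46 over all reporters. These values chose the clones and are a description. The brightest were ASP4 G6 at 14.9, ASP4 F11 and ASP2 B4 both at 14.7, ASP1 G1 at 14.5 and ASP5 F3 at 14.2. The last clone inside the limit was ASP3 G9 at 7.96, and the first outside was ASP3 B4 at 7.94. In the whole array, 915 reporters were at least as bright as the dimmest of the 250, so the lower end of the list is not rare on this array. For 11 of the 250 the average differed by 2 or more on the log2 scale between tables.

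The plates contributed unequally. Of the candidates on plates 2, 3 and 5, 47.9, 47.3 and 43.6 percent were among the 250, and of those on plates 6, 7 and 8, 25.3, 21.5 and 21.1 percent. Plates 1 and 4 stood at 30.2 and 30.9 percent. How the plates were filled and spotted (not given in the sources used here) was not examined.

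**Figure D1:**
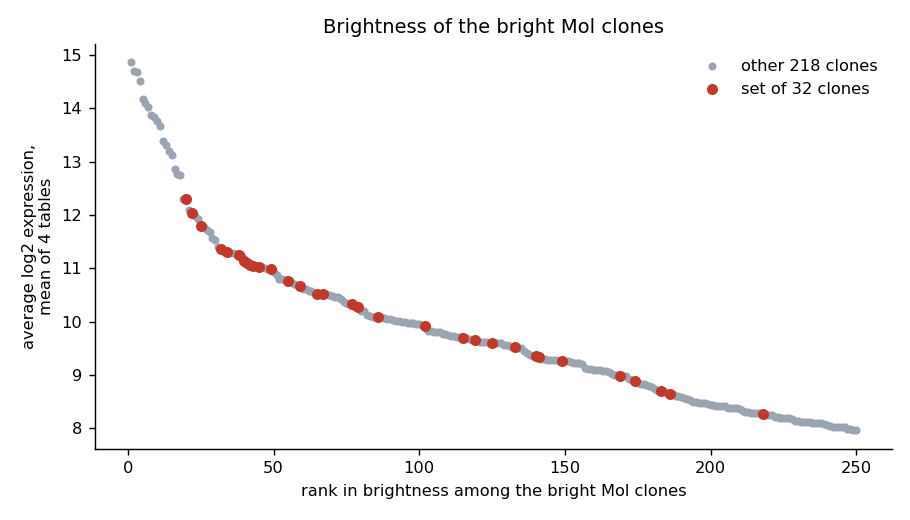
Average log2 expression (mean of the 4 authors' deposited tables) of the 250 clones against their rank in brightness. Points in red are 32 clones that moved together across arrays, at ranks 20 to 218, and grey points are the other 218.

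ASP4 G6 stood between -0.41 and 0.50 on the 20 arrays where it had a value, above 0 on 9 of 10 arrays with the own RNA in Cy5 and below 0 on 10 of 10 in Cy3. ASP2 B4 stood between -0.36 and 0.32. In the authors' deposited table of the zinc comparison ASP4 G6 was at -0.29 ± 0.11 (SE of the authors' fit) and did not pass (adjusted p = 0.0984). It was higher in CtrlF1 than in CtrlF2 by 0.47 ± 0.12 (adjusted p = 0.00871), again by the authors' deposited table. Of the 5 brightest clones 4 were called higher there, ASP5 F3 being the exception, and ASP1 G1 had the largest difference of them, 0.62 ± 0.11 (adjusted p = 0.000263), in the authors' deposited table. In the limma fit of all distinct arrays, which has a dye term and no centring, all 4 had the opposite sign and lost the call. ASP4 G6 was at -0.24 ± 0.35 (adjusted p = 0.719) and ASP1 G1 at -0.16 ± 0.27 (adjusted p = 0.776). The median over all reporters in that fit was itself -0.13, against 0.009 with each array centred. How much of the change of sign came from this shift or from the dye term was not tested.

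The first comparison, ZnF0 against CtrlF0, asked what differed in daphnids raised in zinc. In the authors' deposited table a set of 32 bright Mol clones, described below, rose 3.26-fold at the median, while a larger number of others fell. The set was formed from the same arrays after the values were seen, and the limma fit of all distinct arrays called 0 of the 32 here. By the authors' limma test in their deposited table, 128 of the 250 clones were called at an adjusted p under 0.05, 55 higher and 73 lower in ZnF0, and 33.2 percent of all reporters tested were called. Of all reporters, 16.8 percent were called higher and 16.4 percent lower. A log2 change of 1 or more was found in 34 of the higher and 10 of the lower clones. Among the 498 dimmer Mol candidates the authors' deposited table calls 102, 86 of them higher. The median SE of that table was 0.11 in the 250 clones, 0.21 in the dimmer candidates and 0.15 over all reporters, so the share called differs along with the precision. Age differed too, at 23 against 20 days, and cannot be told apart from zinc.

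ASP2 H4 was at 0.17 and 0.36 on the CtrlF0 arrays and at 2.81, 2.45 and 2.82 on the ZnF0 arrays. The groups did not overlap and the zinc arrays lay close together. Its rise in the authors' deposited table was 2.49 ± 0.11 (adjusted p = 1.15e-12). A limma fit of the 26 distinct arrays with a dye term gave 2.47 ± 0.35 (adjusted p = 0.000646).

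ASP3 H5 was at -0.45 and -0.41 on the CtrlF0 arrays and at 0.97 and 1.87 on ZnF0 replicates 2 and 3, with no value on replicate 1. These few values did not overlap. The authors' deposited table gives a rise of 2.60 ± 0.39 (adjusted p = 4.26e-05). In the limma fit of all distinct arrays its 1.88 ± 1.05 missed the threshold (adjusted p = 0.366), and with the centred arrays of both groups alone it passed (adjusted p = 0.0156).

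ASP8 D4 was at 0.33 and 0.26 in CtrlF0 and at -2.96, -0.83 and -2.48 in ZnF0. All zinc arrays were lower, replicate 2 by much less than the others. The authors' deposited table gives a fall of -2.62 ± 0.34 (adjusted p = 4.86e-06), and the limma fit of all distinct arrays -2.35 ± 0.40 (adjusted p = 0.00312).

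ASP7 G4 was at -0.43 and 0.97 in CtrlF0 and at -1.63, -0.20 and -0.76 in ZnF0. The groups overlapped. The authors' deposited table gives -2.41 ± 0.26 (adjusted p = 1.03e-06), whereas the limma fit of the value table gave -1.09 ± 0.47, which did not pass (adjusted p = 0.196).

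The second comparison, CtrlF1 against CtrlF0, asked how the next control generation differed, with no zinc on either side. ASP3 H5 had the largest rise here as well. By the authors' limma test 117 of the 250 clones were called, 59 higher and 58 lower in CtrlF1, with 25 percent of all reporters called, 12.1 percent higher and 12.9 percent lower. Of the higher clones 36 reached 1 on the log2 scale, and of the lower ones 3. This comparison and the first share the CtrlF0 samples, so their likeness is no separate evidence. CtrlF1 was sampled at 22 days.

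ASP3 H5 was at 0.65, 1.40 and 1.93 on the CtrlF1 arrays, all above CtrlF0, and its rise in the authors' deposited table was 2.47 ± 0.34 (adjusted p = 1.15e-05). ASP3 H3 was at -0.40 and -0.24 in CtrlF0 and at 0.65, 1.36 and 1.87 in CtrlF1, with a rise of 2.27 ± 0.32 in the authors' deposited table (adjusted p = 1.95e-05). For both clones the groups did not overlap and replicate 1 was the lowest CtrlF1 array. Both calls were lost in the limma fit of all distinct arrays (adjusted p = 0.515 and 0.526).

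On the lower side, ASP6 A3 was at 1.23 and 1.19 in CtrlF0 and at 0.03, -0.51 and -0.21 in CtrlF1. In the authors' deposited table it fell, at -1.40 ± 0.12 (adjusted p = 1.69e-07). ASP8 A10 was at 0.97 and 1.35 in CtrlF0 and at 0.08, -0.46 and 0.16 in CtrlF1, and fell in the authors' deposited table, at -1.20 ± 0.14 (adjusted p = 1.70e-06). Neither clone had overlapping groups. In the limma fit of all distinct arrays their calls were lost too (adjusted p = 0.0616 and 0.112). ASP6 A3 and ASP8 A10 followed each other closely, with a Spearman correlation of 0.97 over 25 arrays that share the reference pool.

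CtrlF2 was set against CtrlF0 at the same age of 20 days. Most clones called were lower. The authors' limma test called 59 of the 250 clones, 6 higher and 53 lower in CtrlF2, with 12.5 percent of all reporters called, 5.1 percent higher and 7.39 percent lower. CtrlF0 had the own RNA in Cy5 throughout and CtrlF2 in Cy3 on 2 of 3 arrays. On the log2 scale 25 fell by at least 1 and 1 rose by as much. At an adjusted p under 0.01 the count in the authors' deposited table was 33, with 5.73 percent of all reporters called.

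ASP4 H11 was at -0.33 and -0.34 in CtrlF0 and at -4.88, -2.09 and -2.50 in CtrlF2. ASP2 D8 was at -0.32 and 0.10 and at -4.03, -1.73 and -2.52. In both, every CtrlF2 array was lower and replicate 1 was lowest. Their falls in the authors' deposited table were -2.72 ± 0.49 (adjusted p = 0.000906) and -2.57 ± 0.43 (adjusted p = 0.00046). Neither call was kept in the limma fit of all distinct arrays (adjusted p = 0.419 and 0.191).

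ASP2 H1 was at -1.76 and -0.91 in CtrlF0 and at -0.06, -0.14 and -0.26 in CtrlF2. ASP7 C5 was at -0.42 and -0.12 in CtrlF0 and at 0.31, 0.69 and 0.58 in CtrlF2. Neither clone had overlapping groups. They rose in the authors' deposited table by 1.19 ± 0.16 (adjusted p = 7.79e-05) and 0.86 ± 0.17 (adjusted p = 0.00316), and both calls were lost in the limma fit of all distinct arrays (adjusted p = 0.134 and 0.0707).

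The fourth comparison, CtrlF1 against CtrlF2, held the largest differences. By the authors' limma test 129 of the 250 clones were called, 86 higher and 43 lower in CtrlF1, with 30.8 percent of all reporters called, 14.8 percent higher and 16 percent lower. A log2 change of 1 or more was found in 38 of the higher clones and 2 of the lower. Age differed by 2 days, and 2 of the 3 CtrlF2 arrays had the own RNA in Cy3 while CtrlF1 had it in Cy5 throughout. The single CtrlF2 array in Cy5, replicate 3, bears on that and is given below.

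ASP4 H11 was at 0.58, 1.35 and 1.90 in CtrlF1, every array above those of CtrlF2, where it was at -2.50 on the array in Cy5. The authors' deposited table puts it higher in CtrlF1 by 4.76 ± 0.50 (adjusted p = 1.19e-06), and the difference was 3.81 ± 1.06 in the limma fit of all distinct arrays (adjusted p = 0.0268). ASP4 C3 was at 0.61, 1.24 and 1.92 in CtrlF1 and at -4.79, -1.93 and -2.00 in CtrlF2, the last in Cy5. The authors' deposited table gives 4.61 ± 0.51 (adjusted p = 2.09e-06), and the limma fit of all distinct arrays 3.46 ± 1.04 (adjusted p = 0.0367).

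ASP8 D4 was at -0.45, -0.75 and -0.64 in CtrlF1 and at 0.57, 0.53 and 0.17 in CtrlF2. ASP6 A3 was at 0.79, 0.92 and 0.78 in CtrlF2, above all CtrlF1 arrays. Both were lower in CtrlF1 in the authors' deposited table, at -1.26 ± 0.10 (adjusted p = 8.36e-08) and -1.10 ± 0.11 (adjusted p = 9.05e-07). In the limma fit of all distinct arrays the call of ASP8 D4 was lost (adjusted p = 0.0861) and that of ASP6 A3 was kept (adjusted p = 0.0185).

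Calls were fewer at the dim end of the list. Of the 50 brightest clones, 56, 48, 42 and 80 percent were called in the 4 comparisons in the order above, by the authors' deposited tables. Of the 50 dimmest the shares were 32, 28, 10 and 36 percent, and of all reporters 33.2, 25, 12.5 and 30.8 percent, again by the authors' deposited tables.

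The zinc comparison and CtrlF1 against CtrlF2 share no sample. The authors' limma test called 89 clones in both, which is 69.5 percent of the 128 and 69.0 percent of the 129. Of these, 85 had the same sign and 4 the opposite one, or 95.5 percent with the same sign. Of the other 1960 reporters tested in both, 277 were called in both, which is 45.6 percent of the 608 called in zinc and 49.6 percent of the 558 called in the other, and 91.0 percent of them had the same sign. The overlap and the likeness of sign thus extended over the array, and the difference between these shares was not tested. Both contrasts set older against younger daphnids, 23 against 20 and 22 against 20 days, and the part of age was not tested.

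**Figure D2:**
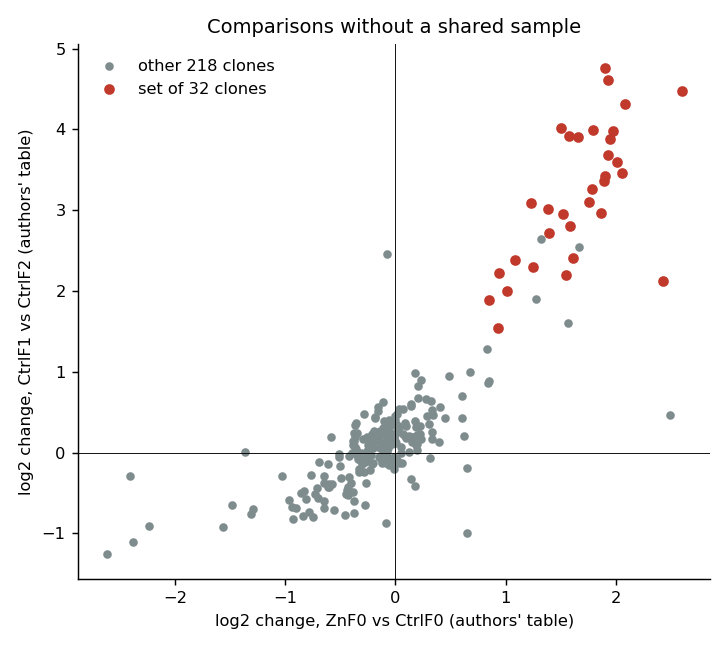
Log2 change of each of the 250 clones in ZnF0 against CtrlF0 (horizontal) and CtrlF1 against CtrlF2 (vertical), both from the authors' deposited tables. All 32 clones of the set that moved together (red) lie at 0.85 or above on the horizontal and at 1.54 or above on the vertical axis.

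A set of 32 clones moved together from array to array and carried most of the large rises. The set is formed of clones linked by a Spearman correlation over 0.93 across 25 arrays, without the sparse Zn(+)F1 replicate 2. The limit was picked after the values were seen, and a limit of 0.9 gives 40 clones and 0.95 gives 29, so the set is a description with no test. Within it the median pairwise correlation was 0.95 and the lowest 0.77, against a median of 0.05 among the other 218. The arrays share the reference pool. The next largest set at this limit held 3 clones.

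All 32 lay on plates 1 to 5, with 3, 7, 5, 10 and 7 clones, and 0 on plates 6, 7 and 8, which hold 23, 20 and 20 of the 250. By brightness they ranked from 20 to 218, so they are not the brightest clones. Their profile was not limited to Mol. Across all libraries, 28 of 762 Mol, 14 of 757 Ene and 2 of 729 Rep reporters followed the median of the set. The limit was again a Spearman correlation over 0.93. Of those 28 Mol reporters, 26 were among the 250. That is fewer than the 32 clones of the set, so not every clone of the set followed its median at this limit. Whether these clones hold the same or related cDNA cannot be read without their sequences.

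In the authors' deposited tables all 32 were called higher in ZnF0 than in CtrlF0, with a median log2 change of 1.71, or 3.26-fold, and a range of 0.85 to 2.60. The joint limma fit of the 26 distinct arrays called 0 of the 32 for this comparison, with 10 at an unadjusted p under 0.05. All 32 were also called higher in CtrlF1 than in CtrlF0, with a median of 1.71 in the authors' deposited table, and the joint limma fit called 0, with 9 at an unadjusted p under 0.05. In CtrlF2 26 of the 32 were called lower than in CtrlF0 and 0 higher, with a median of -1.36, and the joint limma fit called 0, with 2 at an unadjusted p under 0.05. All 32 were higher in CtrlF1 than in CtrlF2 by the authors' deposited table, with a median of 3.18, or 9.09-fold, and the joint limma fit called 19. The set's counts at an unadjusted p stand without a share over all reporters. Over all reporters tested, the median log2 changes of the 4 authors' deposited tables lay between -0.02 and 0.02. Without the set, the authors' limma test called 96, 85, 33 and 97 of the other 218 clones, or 44, 39, 15.1 and 44.5 percent. Of these, 23, 27, 6 and 54 were higher and 73, 58, 27 and 43 lower. Of the 250 clones, the set thus held 32 of the 55 higher calls in zinc and 26 of the 53 lower calls in CtrlF2.

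**Figure D3:**
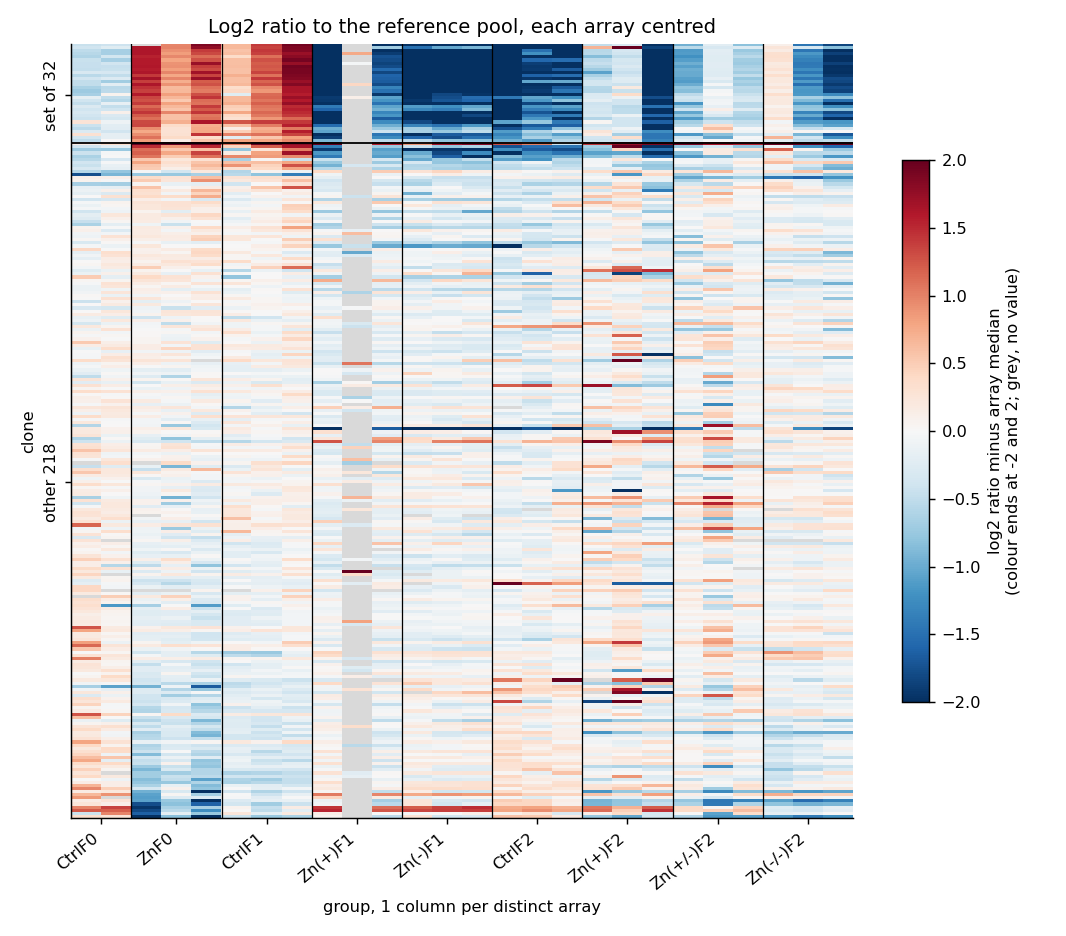
Log2 ratio to the reference pool minus the array median (colour, ending at -2 and 2; grey, no value) for the 250 clones (rows) on the 26 distinct arrays (columns, by group). The 32 clones above the black line were high in ZnF0 and CtrlF1 and low in Zn(-)F1 and CtrlF2, and rows within each block are ordered by the zinc change of the authors' deposited table.

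On the single arrays the median of the set was -0.44 and -0.38 in CtrlF0, 1.40, 0.75 and 1.28 in ZnF0, and 0.60, 1.14 and 1.67 in CtrlF1. It was -2.44, -2.44 and -2.55 in Zn(-)F1. In Zn(+)F1 it was -3.05 and -1.49 on replicates 1 and 3, and 0.26 on the sparse replicate 2, where 4 of the 32 had a value. So the set lay above the reference pool in ZnF0 and CtrlF1 and slightly below it in CtrlF0. On all full arrays of Zn(+)F1 and Zn(-)F1 it lay far below the pool, given the assumed direction of their ratios. The own RNA was in Cy3 on every array of Zn(+)F1 and Zn(-)F1 and in Cy5 on every array of CtrlF0, ZnF0 and CtrlF1. Group and dye cannot be told apart from these values. CtrlF2, with no zinc in its history, also lay far below the pool, as given next.

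In the F2 generation the set varied within groups. CtrlF2 had -3.16, -1.59 and -1.65, and Zn(+/-)F2 had -0.97, -0.22 and -0.54. Zn(+)F2 was split between -0.41 and -0.38 on the arrays in Cy5 and -3.23 on the array in Cy3. Zn(-/-)F2 ran from 0.19 and -1.15 in Cy3 to -1.80 in Cy5. In CtrlF2 and Zn(+/-)F2 the array of the other dye lay within or next to its group, in Zn(+)F2 the array in Cy3 was far lower, and in Zn(-/-)F2 the array in Cy5 was the lowest. Over the same 26 arrays the median of the other 218 clones stayed between -0.17 and 0.12.

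**Figure D4:**
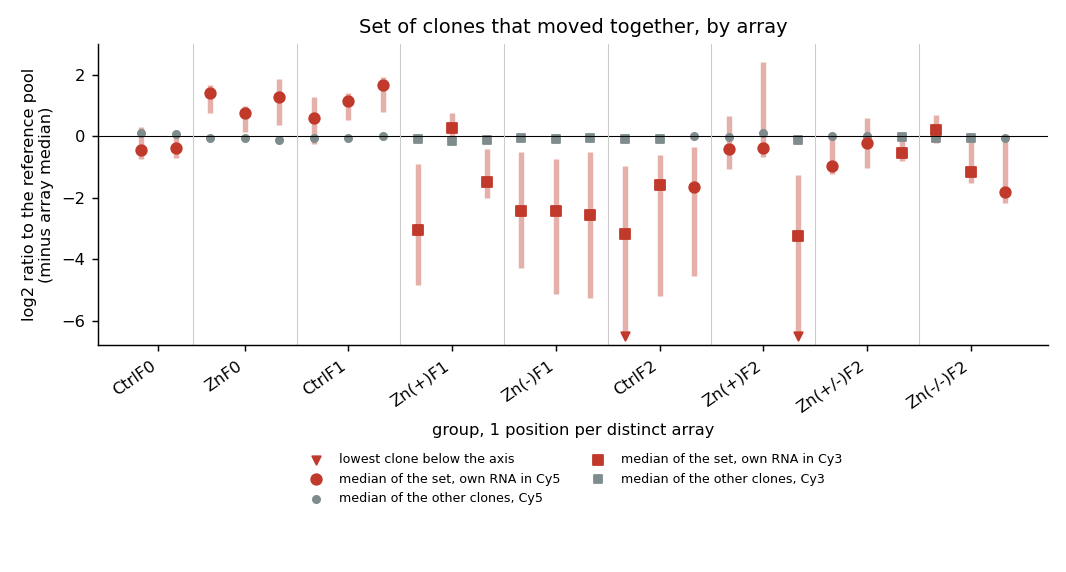
Median (red) and range (pale bar) of the 32 clones on each distinct array, by group, as the log2 ratio to the reference pool minus the array median, with the median of the other 218 clones in grey. Circles are arrays with the own RNA in Cy5 and squares in Cy3, and triangles mark arrays whose lowest clone lies below the axis.

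ASP3 H3, a member of the set, showed how unevenly the tables treat some bright clones. It was at -3.07, -5.19 and -4.55 in CtrlF2, far below the -0.40 and -0.24 of CtrlF0. The authors' deposited table of CtrlF2 against CtrlF0 nevertheless gives -0.02 ± 0.80 (adjusted p = 0.995). Its average log2 expression differed by 3.84 between the 4 tables. Over the 250 clones the differences of group means in the value table correlated with the authors' log2 changes at 0.99, 0.99, 0.83 and 0.94 in the order of the tables, across clones, which are not independent replicates. The sign was the same in 239, 232, 237 and 236 clones.

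The refit of the value table called fewer clones than the deposited tables. With all 26 distinct arrays, 9 groups and a dye term, limma called 17 clones for zinc in F0, 1 higher and 16 lower, with 5.22 percent of all reporters called. With each array centred it called 42, 3 higher and 39 lower, at 11.7 percent. With only the centred arrays of both groups it called 52, 37 higher and 15 lower, at 11.3 percent, and 29 of these were clones of the set. The joint limma fit has 1 estimate of spread per clone over all groups.

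For CtrlF1 against CtrlF0 the joint limma fit called 0 clones and 0 percent of all reporters. At an unadjusted p under 0.05 it gave 42 clones, a count without a share over all reporters. Centred, it called 17, 5 higher and 12 lower, at 3.96 percent. For CtrlF2 against CtrlF0 it called 0 clones and 0.947 percent of all reporters. At an unadjusted p under 0.05 it gave 21 clones, again without a share over all reporters. Centred, it called 2, both lower, at 1.79 percent. For CtrlF1 against CtrlF2 it called 44 clones, 23 higher and 21 lower, at 13.3 percent of all reporters, and 19 of the 23 were clones of the set. Centred, that split was 39 higher and 20 lower, at 17.8 percent. The degrees of freedom recovered from the authors' deposited t scores and p-values spanned 16, 16, 14 and 11 between reporters within a table. limma adds 1 prior value to all reporters, so such a span is one of residual degrees of freedom, of which 2 groups of 3 arrays leave 4. The authors' fits therefore held further values. Spots of 1 array and further arrays cannot be told apart as their source, nor can it be told whether both copies of the repeated CtrlF0 array entered.

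Array by array, the groups did not overlap for zinc in F0 in 58 clones that were higher and 86 that were lower, of 243 compared, or 59.3 percent, against 48.8 percent of all reporters. For CtrlF1 against CtrlF0 the share was 51.0 percent against 39 percent. For CtrlF2 against CtrlF0 it was 54.3 percent, with 18 higher and 114 lower, against 34.8 percent. For CtrlF1 against CtrlF2 it was 49.6 percent against 36 percent.

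The remaining comparisons set daphnids with zinc in their history against the controls of their own generation, and no authors' table for them was used here. In F1 the own RNA carried Cy3 in both zinc lines and Cy5 in CtrlF1, so dye and group can be told apart only through the dye term, which the F2 arrays inform. Directions there are likely at best, on the basis of that term and of the assumed direction of the ratios in the zinc lines. Directions in Zn(+)F2, Zn(+/-)F2 and Zn(-/-)F2 rest on the same assumption. The joint fit also shifted all reporters up, by a median of 0.36 in Zn(+)F1 and 0.33 in Zn(-)F1. Before centring, the full arrays of CtrlF1, Zn(+)F1 and Zn(-)F1 had medians from -0.03 to 0.01 over all reporters. The part of the dye term in this shift was not tested. Counts and changes from the fit without centring include the shift.

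For Zn(+)F1 against CtrlF1 the joint fit called 32 of the 250 clones, 27 higher and 5 lower, with 14.1 percent of all reporters called. With each array centred, which removes the shift, it called 24, 9 higher and 15 lower, at 9.1 percent. For Zn(-)F1 against CtrlF1 it called 47, 26 higher and 21 lower, at 13.4 percent. Centred, the count was 41, 10 higher and 31 lower, at 10.5 percent. Of the clones called lower with the arrays centred, 9 and 22 belonged to the set. Without the set the counts were 9 higher and 6 lower in Zn(+)F1 and 10 higher and 9 lower in Zn(-)F1. In this centred fit the excess of lower calls thus rested on the set. With only the centred arrays of both groups, limma called 11 higher and 13 lower outside the set in Zn(+)F1, with 286 of 2176 reporters called. In Zn(-)F1 that fit called 27 higher and 36 lower outside the set, with 597 of 2198 reporters called.

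ASP7 C5 was at -0.58, -0.37 and -0.30 in CtrlF1, at 1.25 and 0.98 in Zn(+)F1 and at 0.36, 0.99 and 1.07 in Zn(-)F1. The zinc lines lay above the controls on every array with a value. It rose by 2.06 ± 0.31 (adjusted p = 0.000896) and 1.76 ± 0.28 (adjusted p = 0.0014) in the joint limma fit, and by 1.73 and 1.42 with the arrays centred.

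ASP6 A3 was at 1.53 and 1.24 in Zn(+)F1 and at 1.34, 1.38 and 1.38 in Zn(-)F1, near the 1.23 and 1.19 of CtrlF0 and above all arrays of CtrlF1. In the joint limma fit it was higher than in CtrlF1 by 1.75 ± 0.33 (adjusted p = 0.00296) and 1.74 ± 0.31 (adjusted p = 0.00212).

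The largest falls were in the set. ASP5 D3 was at 1.26, 1.40 and 1.42 in CtrlF1 and at -2.59 and -1.26 in Zn(+)F1, and fell in the joint limma fit, at -2.87 ± 0.60 (adjusted p = 0.00575). ASP4 C2 fell there as well, at -2.82 ± 0.64 (adjusted p = 0.00898), from 1.00, 1.09 and 1.36 to -2.31 and -1.45. Neither clone had a value on Zn(+)F1 replicate 2.

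In Zn(-)F1, ASP4 G5 was at -4.26, -5.14 and -5.27 against 0.57, 1.41 and 1.84 in CtrlF1. ASP2 B1 was at -3.95, -3.94 and -4.61 against 0.60, 1.37 and 1.73. For neither clone did the groups overlap. The joint limma fit gave -5.02 ± 1.22 (adjusted p = 0.0129) and -4.39 ± 1.29 (adjusted p = 0.0318).

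In F2 every group held both dyes. Without centring, the joint limma fit called fewer clones there than in F1. With each array centred this did not hold for Zn(-/-)F2, with 42 clones called beside 24 in Zn(+)F1 and 41 in Zn(-)F1. The shares of all reporters called were 17.6, 9.1 and 10.5 percent. For Zn(+)F2 against CtrlF2 the joint limma fit called 6, 5 higher and 1 lower, with 2.59 percent of all reporters called. For Zn(+/-)F2 it called 5, 1 higher and 4 lower, at 1.47 percent, and for Zn(-/-)F2 15, 6 higher and 9 lower, at 9.98 percent. With each array centred, 8 were higher and 9 lower in Zn(+)F2, 4 and 7 in Zn(+/-)F2, and 14 and 28 in Zn(-/-)F2, with 5.53, 2.85 and 17.6 percent of all reporters called. The median of all reporters shifted by 0.11 for Zn(+)F2 and 0.12 for Zn(-/-)F2 without centring. With the F2 arrays alone the limma counts were 0, 0 and 8, with 0.0446, 0 and 4.37 percent of all reporters called. At an unadjusted p under 0.05 they were 19, 21 and 25 clones, with 10, 7 and 15.5 percent of all reporters.

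ASP2 H4, the clone with the clearest rise in ZnF0, was at 1.30, 1.01 and -0.39 in CtrlF2 and at 3.11, 3.56 and 2.99 in Zn(-/-)F2, which was raised in control medium. These groups did not overlap, and the rise was 2.69 ± 0.31 in the joint limma fit (adjusted p = 0.000188). In Zn(+)F2, still in zinc, it was at 1.44, 1.75 and 1.88, a rise of 1.27 ± 0.32 (adjusted p = 0.0416). That call was lost with the arrays scaled to 1 spread (adjusted p = 0.177) and with the F2 arrays alone (adjusted p = 0.187).

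ASP3 H3 was higher in all 3 F2 groups than in CtrlF2, by 4.57 ± 0.83 in Zn(+)F2 (adjusted p = 0.00553), 3.71 ± 0.83 in Zn(+/-)F2 (adjusted p = 0.0278) and 4.06 ± 0.80 in Zn(-/-)F2 (adjusted p = 0.00297). Its arrays stood at 0.67, 2.42 and -1.85, at -0.54, -0.33 and -0.28, and at 0.24, -0.34 and -0.84, all above the CtrlF2 arrays. With the F2 arrays alone none of these calls passed, with adjusted p = 0.161, 0.245 and 0.0549.

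On the lower side, ASP6 B1 was at 0.49, 0.41 and 0.14 in CtrlF2, at -0.78, -1.43 and -1.34 in Zn(+/-)F2 and at -1.09, -1.52 and -1.35 in Zn(-/-)F2. It fell in both by the joint limma fit, at -1.51 ± 0.28 (adjusted p = 0.0107) and -1.56 ± 0.27 (adjusted p = 0.00143). ASP8 F11 fell in Zn(+/-)F2, at -1.11 ± 0.26 (adjusted p = 0.0358). With the F2 arrays alone the calls of both in Zn(+/-)F2 were lost (adjusted p = 0.11 for ASP6 B1 and 0.205 for ASP8 F11), and that of ASP6 B1 in Zn(-/-)F2 was kept (adjusted p = 0.0293). ASP8 D4, at -1.15, -1.41 and -1.21 in Zn(-/-)F2, fell there by 1.58 on the log2 scale, with an SE of 0.36 (adjusted p = 0.00796).

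ASP6 F12 was the 1 clone called lower in Zn(+)F2. It was at 0.41, 0.41 and 0.10 in CtrlF2 and at -1.17, -0.82 and -0.45 in Zn(+)F2, with no overlap, and fell in the joint limma fit, at -0.96 ± 0.21 (adjusted p = 0.0171). That call was lost with the F2 arrays alone (adjusted p = 0.147). Among the clones outside the set, ASP8 D4 and ASP8 F11 followed each other at a Spearman correlation of 0.96 over 25 arrays, and ASP6 B1 and ASP6 F12 belonged to the linked group of 3.

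**Figure D5:**
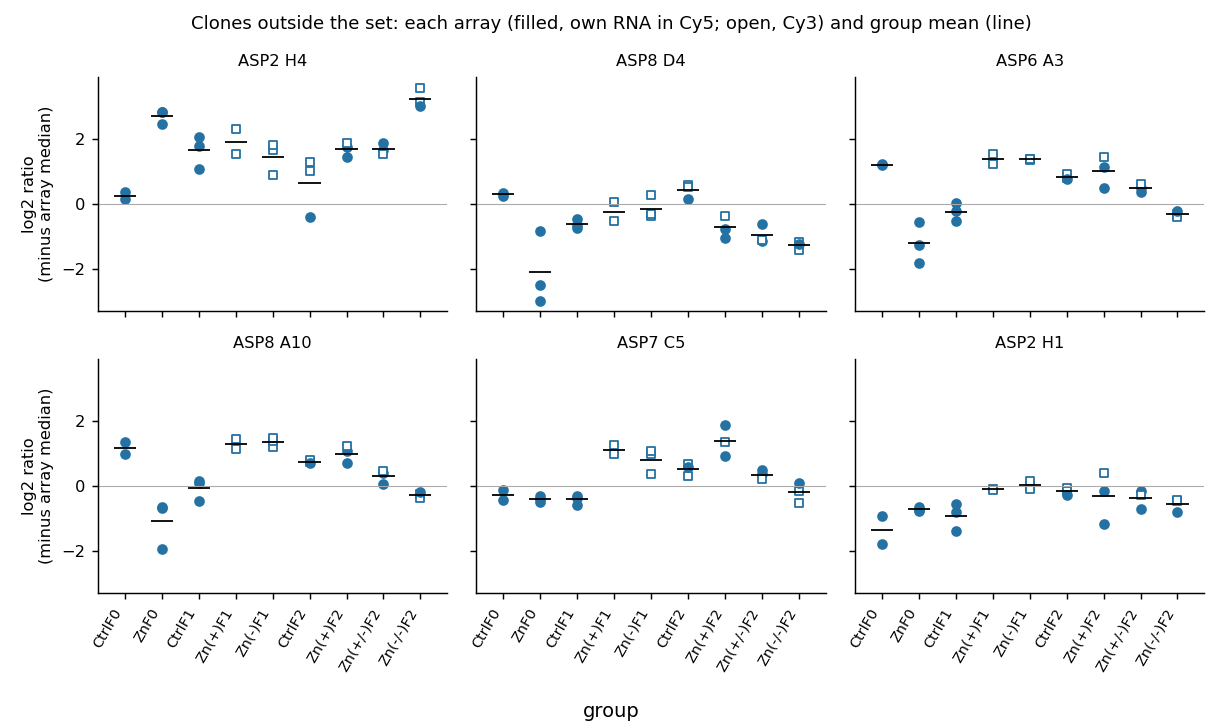
Log2 ratio to the reference pool minus the array median for 6 clones outside the set, with 1 point per distinct array (filled circles, own RNA in Cy5; open squares, Cy3) and the group mean as a line. ASP2 H4 was highest in ZnF0 and Zn(-/-)F2, and ASP6 A3 and ASP8 A10 were lowest in ZnF0.

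Array by array, the shares of clones whose groups did not overlap were 58.9 percent for Zn(+)F1 and 56.6 percent for Zn(-)F1, against 49.7 and 46.9 percent of all reporters. Of these clones 48 were higher and 97 lower in Zn(+)F1, and 50 were higher and 91 lower in Zn(-)F1. In F2 the shares were 22.0 percent for Zn(+)F2, 38.0 percent for Zn(+/-)F2 and 44.2 percent for Zn(-/-)F2, against 19.4, 23 and 38.8 percent of all reporters.

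The zinc effect within F2, Zn(+)F2 over CtrlF2, was also set against that within F0. A test of the difference itself, added after the data were seen, called 4 of 243 clones by limma, all with a higher value in F2, with 1.11 percent of all reporters called. Centred, it called 5, at 1.26 percent. Both counts are small and close to the shares over all reporters. Of the clones called, ASP6 A3 had the largest difference in the joint limma fit, 2.69 ± 0.37 (adjusted p = 0.00115). It was at 1.23 and 1.19 in CtrlF0 and at -1.81, -0.54 and -1.24 in ZnF0, but at 1.12, 0.48 and 1.45 in Zn(+)F2 beside 0.79, 0.92 and 0.78 in CtrlF2. ASP8 A10 gave 2.56 ± 0.42 (adjusted p = 0.00566).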

How the data were processed

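Values came from 4 comparison tables and a deposited value table of 27 arrays, for which the submitters' processing notes name limma. Each of the authors' tables gives a log2 change, an average log2 expression, a p-value, an adjusted p-value and t and B scores, per the deposited readme. The deposited value table holds log2 ratios. For CtrlF0, ZnF0, CtrlF1 and CtrlF2 they were found, by comparison with those tables, to run as own RNA over reference pool. Those tables do not cover the other groups, whose ratios were taken to run the same way, and that could not be checked by this comparison. Not given in the sources used here: the authors' background correction, normalization and limma version. The deposited adjusted p-value equalled the Benjamini-Hochberg value over each table. SE is the deposited log2 change over t.

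Here limma 3.58.1 (R 4.3.3) was fitted to the value table over all reporters, with 9 groups and a dye term, requiring 2 values a group, and p-values were adjusted over all reporters. The design planned 27 arrays and 26 distinct ones were used. The fit was tested on simulated data. Zn(+)F1 replicate 3 is titled differently and was grouped by its zinc exposure label. Replicate numbers did not pair samples (same-number pairs of arrays had a median Spearman correlation of -0.00111). The number of arrays limits the precision. No coordinates are given, since no reporter is matched to a genome.

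Clones named are the 5 brightest, those at the limit, and up to 2 that rose and 2 that fell most among those called per comparison, by the authors' table or else the refit. The members and lists were chosen with earlier results of these data known. Alternatives were another threshold, centring, scaling, no dye term, a replicate block, leaving out dim reporters, extreme values, groups or single arrays.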

Additional observations from a re-analysis of the deposited data

Results flagged for a closer look

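The change from control to zinc was called different between F2 and F0 in 4 of 243 clones, with 1.11 percent of all reporters called. This was a test of the difference itself in the joint limma fit, with Zn(+)F2 against CtrlF2 set against ZnF0 against CtrlF0. The count fell to 2 with the replicate block and without any 1 of several single arrays, and CtrlF0 had 2 distinct arrays. ASP6 A3 differed by 2.69 ± 0.37 (adjusted p = 0.00115) and ASP8 A10 by 2.56 ± 0.42 (adjusted p = 0.00566). ASP8 A10 was at -1.94, -0.64 and -0.66 in ZnF0, below the 0.97 and 1.35 of CtrlF0, and at 1.06, 0.70 and 1.22 in Zn(+)F2 beside 0.74, 0.80 and 0.69 in CtrlF2. The other two were chosen after their values were seen. ASP5 B7 differed by 1.04 ± 0.23 (adjusted p = 0.0344) and was at 0.61 and 0.55 in CtrlF0, at -0.34, -0.11 and -0.22 in ZnF0, at 0.20, -0.03 and 0.05 in CtrlF2 and at 0.17, 0.27 and 0.34 in Zn(+)F2. ASP3 A1 differed by 1.50 ± 0.35 (adjusted p = 0.0461) and was at 0.66 and 0.89 in CtrlF0, at -1.06, 0.04 and -0.68 in ZnF0, at 0.64, 0.46 and 0.45 in CtrlF2 and at 0.57, 0.31 and 0.82 in Zn(+)F2. In all 4 clones the zinc arrays of F0 lay below those of CtrlF0. In F2 the zinc arrays of ASP5 B7 overlapped those of CtrlF2 at replicate 1, those of ASP3 A1 and ASP6 A3 lay on both sides of them, and those of ASP8 A10 overlapped at replicate 2 with the other two above. Age at sampling, 23 against 20 days in F0 and 21 against 20 in F2, moves with the difference, and its part was not tested.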

How the results depend on the processing

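Clone counts from the authors' deposited tables stayed within 1.5 times under another threshold, centring and without dim reporters, except CtrlF2 against CtrlF0, which fell to 33 at an adjusted p under 0.01. The refit moved more, and the causes were not tested. The share of all reporters called moved too. For ZnF0 against CtrlF0 it was 5.22 percent, 11.7 percent centred and 11.3 percent with the centred arrays of both groups. The counts that follow, also those with 1 array left out, stand without such shares. They cannot tell a change in the clones from one across the whole array. For ZnF0 against CtrlF0 (17) it gave 7 with no dye term, 8 with the replicate block, 35 scaled, 42 centred, 52 with the centred arrays of both groups and 6 at the stricter threshold. For CtrlF1 against CtrlF0 (0) it gave 35 scaled, 17 centred and 1 without the dimmest 25 percent of reporters, and for CtrlF2 against CtrlF0 (0) 4, 2 and, with no dye term, 1. For CtrlF1 against CtrlF2 (44) it gave 68 scaled and 7 at the stricter threshold. Zn(+)F1 (32) and Zn(-)F1 (47) gave 53 and 95 with the arrays of both groups and 6 and 13 at the stricter threshold. Zn(+)F2 (6) gave 17 centred, 2 at the stricter threshold and 0 with F2 arrays or both groups alone (19 and 31 at an unadjusted p under 0.05). Zn(+/-)F2 (5) gave 21 scaled, 11 centred, 0 at the stricter threshold and 0 with F2 arrays or both groups alone (21 and 64 at an unadjusted p under 0.05). Zn(-/-)F2 (15) gave 43 scaled, 42 centred, 8 with F2 arrays and 7 at the stricter threshold. The difference of zinc effects (4) gave 2 with the replicate block and 2 at the stricter threshold. The replicate numbers did not pair the samples, and the block moved no other count by over 1.5 times.

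Leaving out 1 array gave 3 to 21 clones for ZnF0 against CtrlF0 (3 without CtrlF0 replicate 1, 6 and 5 without ZnF0 replicates 1 and 3), 0 for CtrlF1 against CtrlF0 in every case (17 to 43 at an unadjusted p under 0.05) and 0 to 2 for CtrlF2 against CtrlF0 (2 and 1 without CtrlF2 replicates 1 and 2). It gave 6 to 50 for CtrlF1 against CtrlF2 (29, 21 and 14 without CtrlF1 replicates 1, 2 and 3, and 6 without CtrlF2 replicate 3), 1 to 32 for Zn(+)F1 (17 and 21 without CtrlF1 replicates 1 and 3, 1 and 4 without Zn(+)F1 replicates 1 and 3, when 49 and 50 clones in place of 246 had the values to be tested) and 23 to 31 for Zn(-)F1, where every array lowered the count. It gave 5 to 36 for Zn(+)F2 (14 without CtrlF2 replicate 3, 36 without Zn(+)F2 replicate 3), 0 to 8 for Zn(+/-)F2 (8 without CtrlF2 replicate 2, 0 without its own replicate 2, with 27 at an unadjusted p under 0.05) and 8 to 69 for Zn(-/-)F2 (31 without CtrlF2 replicate 3, 8 and 69 without its own replicates 1 and 3). The difference of zinc effects ranged from 2 to 11 (8 without CtrlF2 replicate 3, 11 without Zn(+)F2 replicate 3, and 2 without either CtrlF0 array, ZnF0 replicates 1 or 3, CtrlF2 replicates 1 or 2 or Zn(+)F2 replicate 2). Without 1 CtrlF0 array the other is assumed to vary like the other groups.

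No clone named for its change in a comparison turned its sign there within its own table under these alternatives. Of checks on named clones, 48 of 48 in the authors' deposited tables kept their side of the threshold, and in the refit 436 did, 56 lost it and 8 gained it. Centring, leaving out extreme values, the fit of both groups alone and the difference of zinc effects were chosen after seeing the data.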
